A study of Mus musculus with 12 samples.

Results

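The 9 genes described here encode surface markers of hematopoietic stem cells (HSCs) and receptors that hold these cells in the bone marrow. They are Procr, Robo4, Esam, Slamf1, Cd48, Cd34, Cxcr4, Cd44 and Jam3, chosen by symbol out of 19935 genes with a probe set on the array. Each is read by 1 probe set, and no probe set shares its symbol with another gene. Of the 9, 8 lay above the intensity of 182 that was required for testing, and Cd48 lay below it.

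Expression was measured in HSCs sorted from mice of 2 to 3 months by flow cytometry. The 4 groups were males given estradiol (E2, 2 µg in 100 µL of corn oil under the skin), males given corn oil alone, females given the same dose of E2, and females given corn oil alone. Each group holds 3 arrays, given as biological replicates isolated from 3 mice, and each sample was made from 5000 to 7000 cells that carried CD150, c-kit and Sca-1 and lacked CD48 and lineage markers. The strain, the time after injection and the gonadal status were not stated in the labels.

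An HSC stays in its marrow niche through chemokine receptors, integrins, selectin ligands and immunoglobulin-type adhesion molecules on its surface, and it leaves for the blood when these contacts are loosened. Procr encodes the endothelial protein C receptor (EPCR, CD201), which binds protein C and is one of the most selective surface markers of mouse HSCs. Robo4 and Esam encode proteins shared by endothelium and HSCs, a roundabout receptor and an adhesion molecule of endothelial junctions. Cxcr4 encodes the receptor for the marrow chemokine CXCL12, Cd44 the hyaluronan receptor, and Jam3 junctional adhesion molecule C, which binds JAM-B on stroma. CD150 (Slamf1) and CD48 (Cd48) are members of the SLAM family used to sort HSCs, and CD34 (Cd34), a sialomucin, is carried by progenitors and is low on long-term HSCs of adult mice.

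All 7 genes listed as HSC markers with a probe set of their own, among them Kit, Mecom and Tek, passed the filter, though 1 of them averaged below 182 in E2-treated females. Of the lineage lists, 6 of 7 B cell markers, 6 or 7 of 8 T and NK cell markers and 6 of 7 monocyte and macrophage markers lay at or below that level in each group, while 7 or 8 of 10 granulocyte markers lay above it. At or below it were also 1 or 2 of 7 megakaryocyte markers and 3 or 4 of 10 endothelial markers. For erythroid markers it was 3 or 4 of 5, and for stromal markers 6 or 7 of 8. No reading was 0. The median intensity per array was between 143 and 159. The 3 arrays of E2-treated females stood further from their group mean, with root mean square deviations of 0.169 to 0.200 on the log2 scale, than the other 9 arrays, at 0.099 to 0.127. The highest was female E2 replicate 1, and calls of members that change without it are given both ways. Array intensities depend on the probes, so no gene's level is set against another gene's. In these bulk samples, fewer cells of a type and less RNA per cell cannot be told apart.

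Procr, Robo4, Esam and Cd34 were lower with E2 when the response was averaged over males and females, by 0.29 to 0.52 on the log2 scale, or 18.4% to 30.2%. No member was higher. The other 4 members tested (Slamf1, Cxcr4, Cd44 and Jam3) did not pass. In the background of all 9967 genes tested, 8.90% were called in this comparison, 5.78% lower and 3.12% higher. The 8 members tested had a median log2 difference of -0.28, against -0.01 over all genes tested, and all 8 were below 0, against 53.3% of all genes. On 4 of the 8, all E2 arrays lay below all oil arrays in both sexes, a pattern found in 4.88% of all genes tested. The members were chosen with earlier results of these data known. The contrasts with all genes are therefore a description of the members and not a test of them as a set.

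Procr gave the smallest p of the 9. The E2-treated males read 594, 622 and 569.9, against 885, 923 and 883 in the oil-treated males. The E2-treated females read 549.8, 560.4 and 628, against 677, 806 and 735 in the oil-treated females. Every E2 array lay below every oil array, across both sexes. The highest level was in oil-treated males, followed by oil-treated females, and the E2-treated males (595 ± 25.9, mean ± SD, n = 3) and E2-treated females (579 ± 42.4) lay within each other's spread. In limma's model the log2 difference was -0.59 ± 0.09 in males (SE; adjusted p = 0.00391) and -0.35 ± 0.09 in females (adjusted p = 0.0462). The average was -0.47 ± 0.06 (adjusted p = 0.000537), which placed Procr at rank 63 of 9967 genes by p. The female call was narrow: it was lost under 18 of 22 alternative settings, with adjusted p up to 0.202 and log2 differences from -0.41 to -0.29, while the male and averaged differences kept an adjusted p under 0.05 in every refit. Leaving out female E2 replicate 1 was among the settings that lost the female call (-0.31, adjusted p = 0.0758).

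Robo4, a receptor that helps mouse HSCs to lodge in the marrow, read 390.2, 348 and 402 in E2-treated males, against 499.7, 547 and 472 in oil-treated males. In females the values were 287, 284 and 388 with E2, against 529, 463 and 475 with oil. The groups did not overlap in either sex, and 2 of the E2-treated females gave the lowest readings of the 12 arrays. The log2 difference was -0.63 ± 0.12 in females (adjusted p = 0.0142) and -0.41 ± 0.12 in males (adjusted p = 0.121), and the average was -0.52 ± 0.08 (adjusted p = 0.00226). In females the call was lost without female oil replicate 1 (-0.57, adjusted p = 0.0574) and when only the female groups were fitted (adjusted p = 0.101). In males Robo4 was called with array weights, with only the male groups and without female E2 replicate 3 (adjusted p = 0.0348, 0.0364 and 0.0366, at -0.41 in each). The averaged difference kept an adjusted p under 0.05 in all 21 refits.

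Esam, the junctional adhesion molecule of endothelium and HSCs, read 883, 826 and 769.8 in E2-treated males, against 1191, 1102 and 1086 in oil-treated males. The E2-treated females read 974, 908 and 896, against 1004, 1055 and 1046 in the oil-treated females. The male groups lay far apart, and the female groups were separated by a narrow gap. The log2 difference was -0.45 ± 0.08 in males (adjusted p = 0.0135) and -0.16 ± 0.08 in females (adjusted p = 0.314), with an average of -0.30 ± 0.06 (adjusted p = 0.00587) that kept an adjusted p under 0.05 in all 21 refits. In males the call was lost when male E2 replicate 2 or 3 was dropped (adjusted p = 0.0516 and 0.084), when male oil replicate 1 was dropped (0.0668), and with no filter (0.0501). The female response minus the male response was 0.29 ± 0.12, a smaller fall in females, with an interval of 0.04 to 0.53. This difference did not pass (limma's adjusted p = 0.907).

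Cd34 read 1701, 1646 and 1629.6 in E2-treated males, against 1873, 2147 and 1808 in oil-treated males. It read 1697, 1474 and 1493 in E2-treated females, against 1960.5, 1785 and 2272 in oil-treated females. Neither sex showed overlap, though the oil arrays were more scattered than the E2 arrays. The average log2 difference was -0.29 ± 0.07 (adjusted p = 0.0257), from -0.22 ± 0.10 in males (adjusted p = 0.335) and -0.36 ± 0.10 in females (adjusted p = 0.0742). The averaged call was lost when male E2 replicate 2 or 3 was dropped (adjusted p = 0.0618 and 0.0602), when male oil replicate 2 (0.0681) or female oil replicate 3 (0.0626) was dropped, and with no filter (0.0664). In females Cd34 was called without female E2 replicate 1 (-0.43, adjusted p = 0.04) and with trend and robust estimation (adjusted p = 0.0337).

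**Figure D1:**
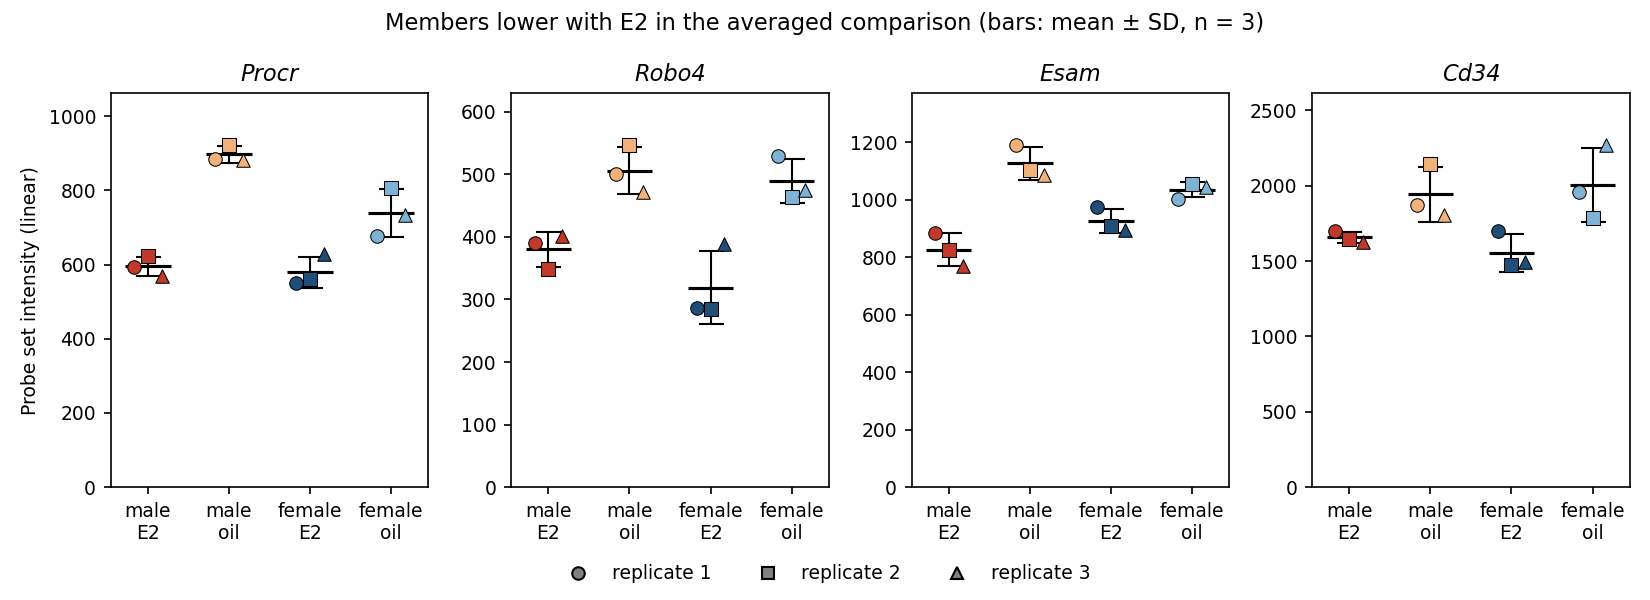
Probe set intensity (linear) of Procr, Robo4, Esam and Cd34 on the 12 arrays by group; points are arrays, with the symbol giving the replicate number, and bars are the mean ± SD of 3 arrays. In each sex the E2 arrays lie below the oil arrays for all 4 genes, widely for Procr (570 to 622 against 883 to 923 in males) and narrowly for Esam in females (896 to 974 against 1004 to 1055).

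Within the sexes, 2 of 8 members were called in males (Procr and Esam, both lower) where 1.43% of all genes were called and 0.863% were lower, and 2 of 8 in females (Procr and Robo4, both lower) where 3.56% were called, 2.75% lower and 0.813% higher. These 2 comparisons share no array, but the model pools the spread over all 4 groups. On every array of E2-treated males 5 members read below every array of oil-treated males (Procr, Robo4, Esam, Slamf1 and Cd34), a pattern seen in 13.0% of genes tested. In females it was again 5 (Procr, Robo4, Esam, Cd34 and Cd44), against 13.1% of genes. No member read above on every array in either sex, against 13.6% of genes in males and 6.95% in females. The way the members were chosen limits these contrasts too.

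**Figure D2:**
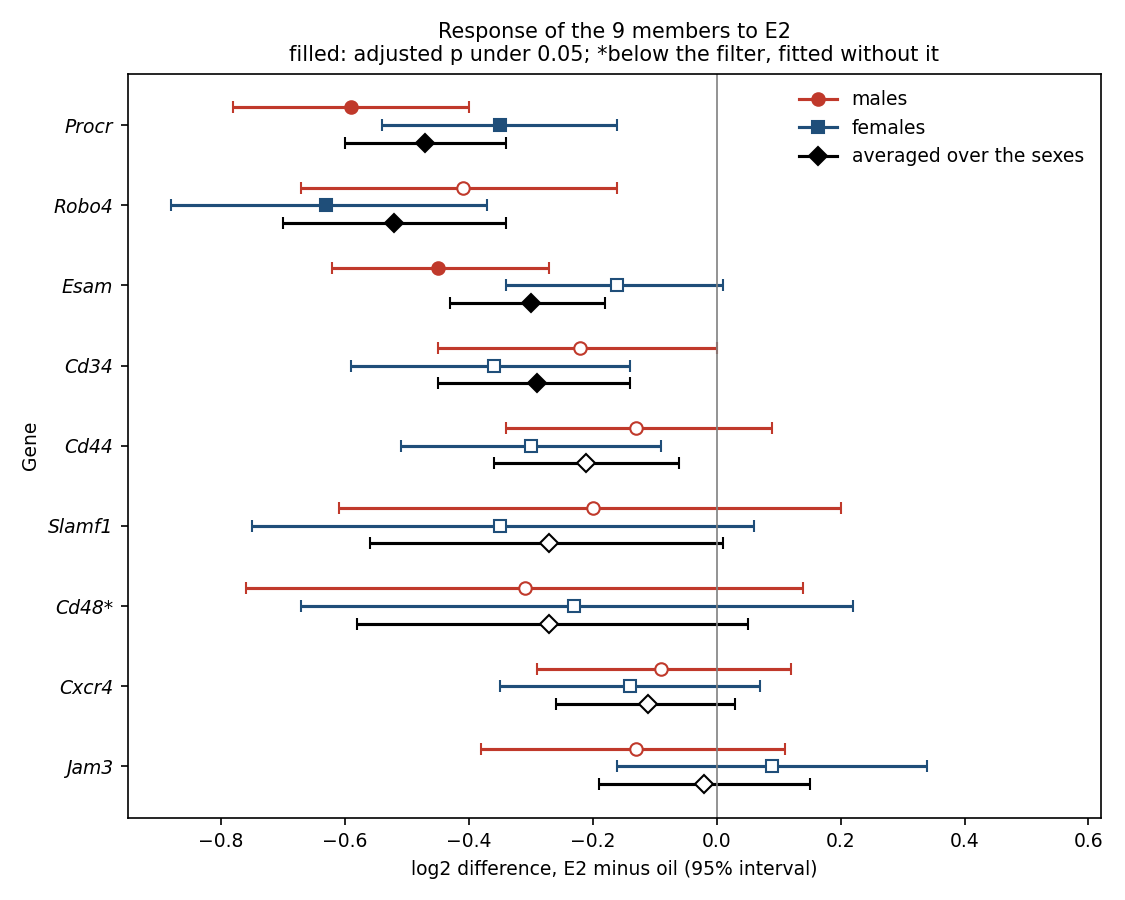
Log2 difference between E2 and oil for the 9 genes, with 95% intervals, for males, for females and for their average; filled symbols have an adjusted p under 0.05, and Cd48, below the filter, comes from the fit without it. The averaged intervals of Procr (-0.60 to -0.34) and Robo4 (-0.70 to -0.34) lie furthest from 0, and that of Jam3 (-0.19 to 0.15) is centred close to 0.

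Slamf1 and Cd48 are the members that belong to the sort gate, so each cell had been selected on the proteins that they encode. The effect of the gate on their transcripts was not tested. Slamf1 read 521, 542 and 507 in E2-treated males, against 598, 573 and 638 in oil-treated males. In females it read 661, 349.9 and 400.0 with E2, against 584, 686 and 475 with oil. The male groups did not overlap, and the female groups did because female E2 replicate 1 gave the second highest of the 12 readings. The average log2 difference was -0.27 ± 0.13 (adjusted p = 0.225), with an interval of -0.56 to 0.01. Without that array the average was -0.41 (adjusted p = 0.0111) and the female difference -0.62 (adjusted p = 0.0178). In that refit 5 of 8 members were called in the averaged comparison, where 10.2% of all genes were. It was the 1 refit of 21 that called Slamf1 on average. Over the 21 refits the average ran from -0.41 to -0.18, with adjusted p up to 0.436. The female difference ran from -0.62 to -0.16 over 22 refits, with adjusted p up to 0.716, and was called in 1.

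Cd48 lay below the filter level of 182 on all arrays. It read 65.1, 73 and 65 in E2-treated males, against 73.1, 103 and 78.5 in oil-treated males. In females it read 104, 70.1 and 62.8 with E2, against 116, 92.7 and 69 with oil. In the fit of all 19935 genes without the filter, where 2.85% of genes were called in the averaged comparison, its average log2 difference was -0.27 ± 0.15 (adjusted p = 0.411; interval -0.58 to 0.05). After group means were subtracted, Slamf1 and Cd48 varied together with a Pearson r of 0.66 over the 12 arrays, and female E2 replicate 1 was the highest of its group for both. The median r over the 36 pairs of members was 0.05, with a range of -0.63 to 0.83.

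Of the receptors that hold HSCs in the niche, Cxcr4 read 1302, 1548 and 1358 in E2-treated males, against 1442, 1511 and 1500.2 in oil-treated males, and 1496, 1331 and 1218 in E2-treated females, against 1469.9, 1396 and 1589 in oil-treated females. The groups overlapped in both sexes. Its average log2 difference was -0.11 ± 0.07 (adjusted p = 0.338), with an interval of -0.26 to 0.03.

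Cd44 read 1129, 1027 and 1172 in E2-treated males, against 1153, 1358 and 1131 in oil-treated males, and 993, 929 and 967 in E2-treated females, against 1141, 1108 and 1323 in oil-treated females. The male groups overlapped and the female groups did not. The average log2 difference was -0.21 ± 0.07 (adjusted p = 0.0736; interval -0.36 to -0.06), and Cd44 was called with trend and robust estimation (adjusted p = 0.046) and when the threshold was an adjusted p under 0.1. Cd44 and Cd34 had the highest within-group correlation of any pair of members, with an r of 0.83 over the 12 arrays.

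Jam3 stood just above the filter. It read 161, 184 and 191 in E2-treated males, against 178, 211 and 199 in oil-treated males, and 200.0, 191 and 251 in E2-treated females, against 202, 213 and 185 in oil-treated females. The groups overlapped in both sexes, and the average log2 difference was -0.02 ± 0.08 (adjusted p = 0.909; interval -0.19 to 0.15), and its sign turned in 5 refits on 11 arrays.

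**Figure D3:**
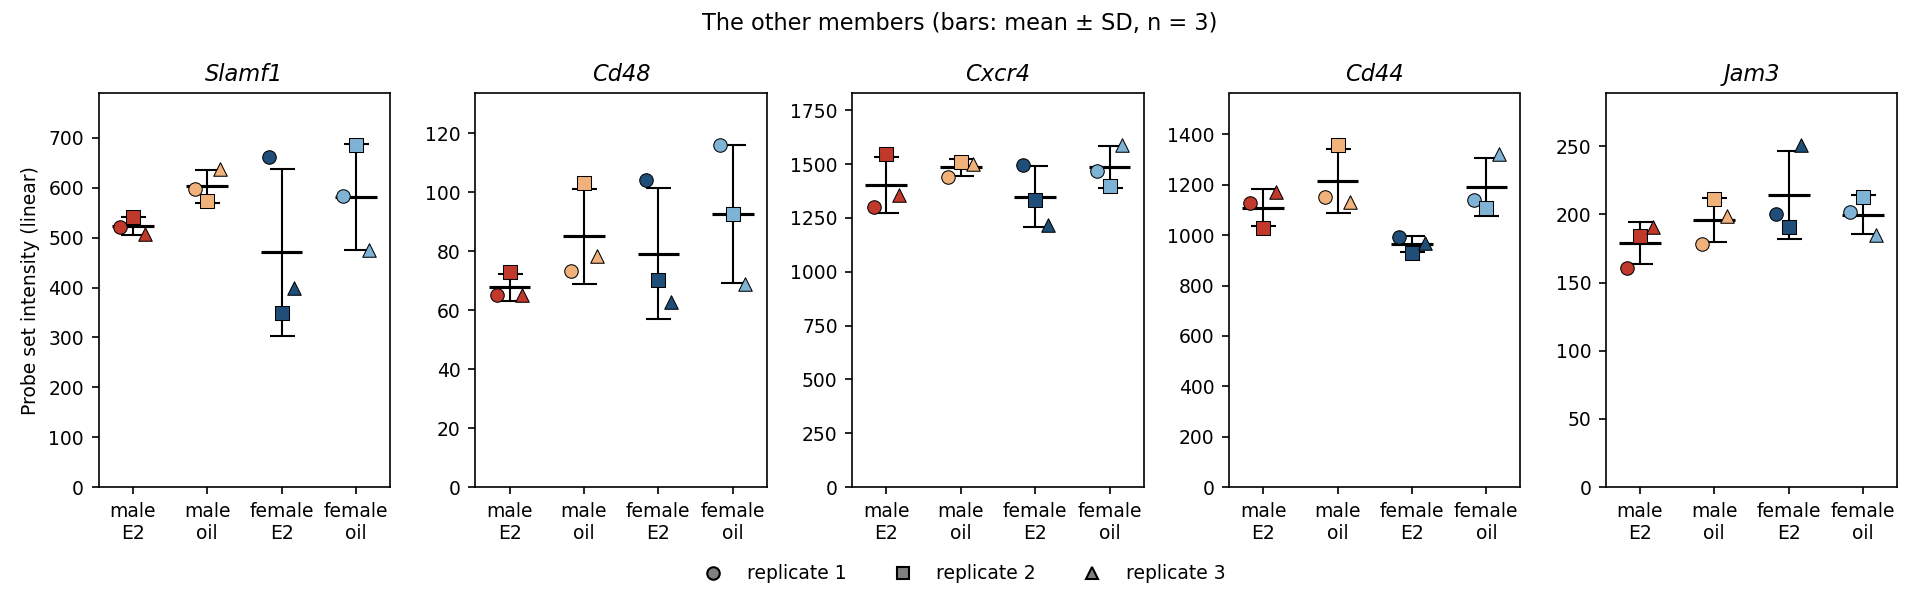
Probe set intensity (linear) of the 5 members that did not pass in the averaged comparison, by group; points are arrays and bars are the mean ± SD of 3 arrays. For Slamf1 and Cd48 the E2-treated females spread widely, from 349.9 to 661 and from 62.8 to 104, with replicate 1 highest, and Cxcr4 and Jam3 overlap between E2 and oil in both sexes.

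The responses of the sexes were compared directly by the female response minus the male response. In limma's model none of the 8 members tested passed (1 at an unadjusted p under 0.05, Esam), where 0.0100% of all genes were called. The difference of responses was 0.24 ± 0.12 for Procr (interval -0.03 to 0.51) and -0.21 ± 0.17 for Robo4 (interval -0.58 to 0.15). Under oil, no member differed between the sexes in limma's model (1 at an unadjusted p under 0.05), where 0.0401% of genes were called. The one was Procr, at 739 ± 64.6 in oil-treated females and 897 ± 22.4 in oil-treated males (n = 3 each), with no overlap and a log2 difference of -0.28 ± 0.09 (adjusted p = 0.795). Under E2, no member passed in limma's model either (2 at an unadjusted p under 0.05, Robo4 and Jam3), where 0.0100% of genes were called, and Procr differed by -0.04 ± 0.09 (adjusted p = 0.921).

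Robo4 and Esam lie near each other on mouse chromosome 9, with Robo3 and Msantd2 between them, by the RefSeq gene table of assembly GRCm38.p6. Of the genes around them, Msantd2, between the pair, had an average log2 difference of 0.12 (adjusted p = 0.5), and Robo3 read 86.7 to 111 on all arrays, below the filter. On the far side of Esam, Vsig2 had -0.19 (adjusted p = 0.162), and Nrgn, which encodes the calmodulin-binding protein neurogranin, rose by 0.39 (adjusted p = 0.00121). Nrgn averaged 1473 ± 86.9 in E2-treated males, against 1038 ± 46.4 in oil-treated males, and 1422 ± 103 in E2-treated females, against 1164 ± 19.9 in oil-treated females (SD, n = 3 each). Ccdc15 and Spa17 did not pass (-0.10 and 0.14, adjusted p = 0.681 and 0.345). Nrgn was the one neighbour of the pair above the filter that passed. Slamf1 and Cd48 lie in the SLAM gene cluster of chromosome 1. Their neighbours Cd84 and Ly9, both SLAM family receptors, had averages of -0.20 (adjusted p = 0.0756) and 0.01 (adjusted p = 0.947), and Slamf6, Slamf7, Cd244a and Vangl2 lay below the filter.

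**Figure D4:**
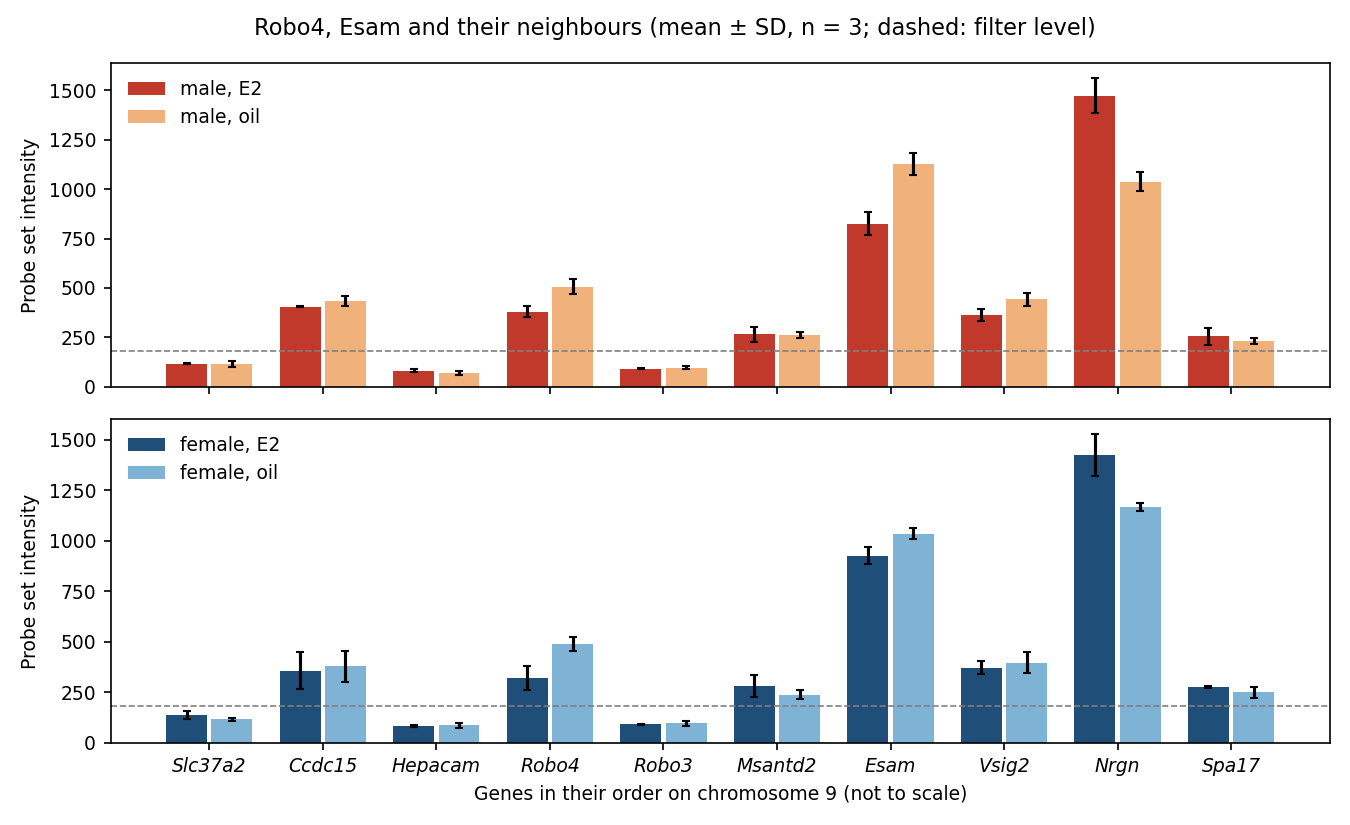
Mean probe set intensity ± SD (n = 3) of Robo4, Esam and their neighbours in their order on chromosome 9, in males (top) and females (bottom), with the E2 bar left of the oil bar and the filter level of 182 dashed. Robo4 and Esam are lower with E2, Nrgn is higher, and Msantd2, which lies between Robo4 and Esam, did not pass the test.

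Promoters from RefSeq (250 bases before to 50 after the start of the gene, GRCm38.p6) were found for 7 of the 9 members, and those of Esam, which was also called lower, and Jam3 were not examined. They were searched on both strands for GGTCA, one arm of the estrogen response element, and for the whole element GGTCANNNTGACC. The whole element was in none of the 7, and it occurs in 0.07% of 32851 mouse promoters of that length. The arm was in 1 copy each in Procr, Robo4 and Cd34, which are shown because all 3 fell with E2, with the arm (or its reverse complement) in capitals.
Procr promoter, chr2:155750967-155751266, + strand: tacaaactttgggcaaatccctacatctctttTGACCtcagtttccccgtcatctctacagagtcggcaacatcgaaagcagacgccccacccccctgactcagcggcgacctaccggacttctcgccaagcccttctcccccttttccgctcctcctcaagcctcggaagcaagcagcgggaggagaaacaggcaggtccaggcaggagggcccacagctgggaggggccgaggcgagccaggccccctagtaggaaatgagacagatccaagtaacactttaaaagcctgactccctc
Robo4 promoter, chr9:37401722-37402021, + strand: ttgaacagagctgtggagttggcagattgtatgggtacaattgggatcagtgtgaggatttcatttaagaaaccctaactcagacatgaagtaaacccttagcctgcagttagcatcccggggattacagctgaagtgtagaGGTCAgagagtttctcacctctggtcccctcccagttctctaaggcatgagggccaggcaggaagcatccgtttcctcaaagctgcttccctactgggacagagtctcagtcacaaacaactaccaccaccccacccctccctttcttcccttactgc
Cd34 promoter, chr1:194938571-194938870, + strand: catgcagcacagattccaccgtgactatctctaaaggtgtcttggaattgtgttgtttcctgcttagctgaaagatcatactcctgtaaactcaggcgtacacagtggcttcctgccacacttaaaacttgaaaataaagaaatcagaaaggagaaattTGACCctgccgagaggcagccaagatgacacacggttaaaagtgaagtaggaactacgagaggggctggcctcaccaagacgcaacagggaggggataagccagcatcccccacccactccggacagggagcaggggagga
Counted from the start of the gene, the arm begins at -218 in Procr, -108 in Robo4 and -91 in Cd34. The promoters of Slamf1, Cd48, Cxcr4 and Cd44 held none. The arm was thus in 3 of 7 promoters, beside 40.5% of all promoters in the table that hold it by sequence alone. Its presence is a description of these letters and not of a bound site. A link between the arm and the fall was not tested.

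Some other surface markers of HSCs and progenitors were lower with E2 as well. Of 28 such genes on the array, 21 were tested, and 8 fell, 0 rose and 13 did not pass in the averaged comparison. Over all genes tested, 5.78% were called lower and 3.12% higher. The median log2 difference of the list was -0.20 against -0.01 over all genes. The list was chosen with earlier results of these data known. Kit, the stem cell factor receptor and itself part of the gate, fell by 0.32 (adjusted p = 0.0023), to 2263 ± 49.7 in E2-treated males, against 2723 ± 38.5 in oil-treated males, and to 1934 ± 113 in E2-treated females, against 2497 ± 39.3 in oil-treated females. Flt3, the cytokine receptor of multipotent progenitors, fell by 1.10 (adjusted p = 8.17e-05), and Thy1, a lipid-anchored glycoprotein, fell by 0.77 (adjusted p = 0.000472). The E2 means of both lay below 182. Alcam (CD166, an adhesion molecule) fell by 0.44, the tetraspanin Cd82 by 0.43, the integrin chain Itga2b (CD41) by 0.44 and the TNF receptor family member Cd27 by 0.39 (adjusted p = 0.000583, 0.00121, 0.00435 and 0.00656). The angiopoietin receptor homologue Tie1 fell by 0.21 and passed narrowly (adjusted p = 0.0467), with adjusted p up to 0.119 under alternatives. It was not called without female E2 replicate 1. Tek (the angiopoietin receptor) and Eng (endoglin, a TGF-beta coreceptor) had averages of 0.00 and 0.06 and did not pass, nor did Ptprc, the CD45 antigen of all white blood cells, at -0.06 (adjusted p = 0.625).

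Of 34 other adhesion and homing genes on the array, 22 were tested, 3 fell, 1 rose and 18 did not pass, with a median of -0.13. Genes below the filter were not tested and do not enter these counts. Among them Itgal averaged 202 ± 47.4 in E2-treated males, against 73.2 ± 15.6 in oil-treated males. In females it averaged 199 ± 84.8 with E2, against 98.8 ± 9.32 with oil. Itgal was picked for mention after its values were known. Dpp4, a protease that cleaves CXCL12, fell by 0.56 (adjusted p = 0.000244), to 221 ± 14 in E2-treated males, against 361 ± 17.7 in oil-treated males, and to 215 ± 19.6 in E2-treated females, against 285 ± 22.1 in oil-treated females. Adgrg1 (GPR56, an adhesion receptor of HSCs) fell by 0.28 (adjusted p = 0.00345). Fut7, a fucosyltransferase that builds selectin ligands, fell by 0.32 (adjusted p = 0.0197), with adjusted p up to 0.0585 under alternatives. Itgb7, an integrin chain that pairs with the alpha 4 chain, rose by 0.63 (adjusted p = 0.00587), to 255 ± 38 in E2-treated males, against 157 ± 24 in oil-treated males, and to 239.7 ± 57.7 in E2-treated females, against 159 ± 14.7 in oil-treated females. Its oil means lay below 182. The chains of the VLA-4 integrin, Itga4 and Itgb1, had averages of 0.03 and -0.14 (adjusted p = 0.82 and 0.202).

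Of 27 ligands and signalling partners of the members on the array, 15 were tested, 2 fell, 0 rose and 13 did not pass, with a median of -0.03. Here too genes below the filter were not tested. Among them Tjp1 averaged 84.6 with E2 against 182 with oil in males, and 98.4 against 176 in females. For Thbd the means were 123 against 203 in males and 136 against 177 in females. Both were picked for mention after their values were known. F2r encodes the thrombin receptor PAR1, which activated protein C cleaves when it is bound to EPCR, and it fell by 0.57 ± 0.08 (adjusted p = 0.000877). It averaged 633 ± 44.5 in E2-treated males, against 854 ± 68.3 in oil-treated males, and 569.6 ± 88.4 in E2-treated females, against 928 ± 74.8 in oil-treated females (SD, n = 3 each), with no overlap in either sex. F2rl2, which encodes PAR3, fell by 0.30 and passed narrowly (adjusted p = 0.0462), with adjusted p up to 0.107 under alternatives. Cxcl12, the ligand of Cxcr4, lay below the filter in all groups. Set against the 8.90% of all genes called, the shares of 4 of 22 adhesion and homing genes and 2 of 15 ligands and partners are not read as particular to these lists. Without female E2 replicate 1 the numbers called in the 3 lists were 7, 4 and 3, where 10.2% of all genes were called.

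**Figure D5:**
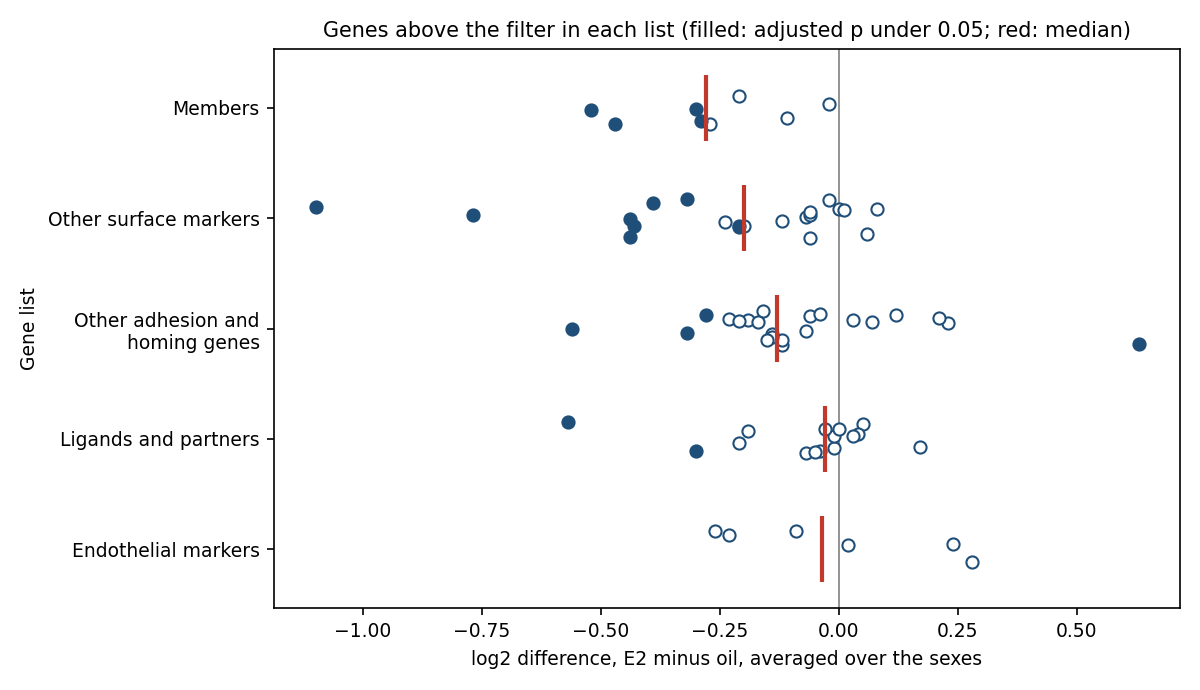
Averaged log2 difference between E2 and oil for the tested genes of each list; each point is a gene, filled where the adjusted p is under 0.05, with the list's median in red and points spread vertically for legibility. The members' median is -0.28, that of other surface markers -0.20, of other adhesion and homing genes -0.13, of ligands and partners -0.03 and of endothelial markers -0.03.

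Markers of other cell types were read beside these results. Since Procr, Robo4 and Esam are also endothelial genes, 10 endothelial markers were examined. Of these, 6 were tested and in limma's model 0 passed in the averaged comparison (2 at an unadjusted p under 0.05), with summed intensities of 3146 to 3585 in E2-treated males, 3156 to 3311 in oil-treated males, 3362 to 3585 in E2-treated females and 3199 to 3404 in oil-treated females. For progenitor markers, of 4 tested Flt3, Satb1 (-0.35, adjusted p = 0.0275) and Cd34 fell, and the sum over 8 genes was 2339 to 2621 in E2-treated males, 2658 to 3874 in oil-treated males, 2394 to 3129 in E2-treated females and 2975 to 5696 in oil-treated females. That sum includes the members Cd34 and Cd48. Over the other 6 genes it was 572 to 902 in E2-treated males, against 711 to 1987 in oil-treated males. For E2-treated females it was 783 to 1573, against 1098 to 3620 in oil-treated females. These ranges overlapped in both sexes. Of these genes Mpo scattered most, with a mean ± SD under oil of 546 ± 590.1 (males) and 1242 ± 1330.5 (females). The overlap of the sum therefore says little of the other genes in it. Flt3 lay lower on every E2 array than on every oil array in each sex, and Satb1 did so only among females. Mpo itself overlapped in both sexes, and the sum without it was not taken. For megakaryocyte markers, of 6 tested Pf4, Plek, Gp5 and Itga2b fell and Gp9 rose. The mean of Plek in E2-treated females, 154, lay below 182. The sum over 7 genes was 2828 to 3142 in E2-treated males, 3579 to 3981 in oil-treated males, 2147 to 3025 in E2-treated females and 3579 to 3907 in oil-treated females. For T and NK cell markers, of 2 tested Nkg7 fell (-1.67, adjusted p = 0.000182), and the sum over 8 genes was 788 to 867 in E2-treated males, 1113 to 1342 in oil-treated males, 838 to 859 in E2-treated females and 1087 to 1278 in oil-treated females. Nkg7 alone averaged 165 in E2-treated males against 573 in oil-treated males, and 173 in E2-treated females against 495 in oil-treated females. Its E2 means lay below 182. The other gene tested, Cd3e, did not pass (-0.01, adjusted p = 0.952), and the sum without Nkg7 was not taken. The part of these cell types in the fall of the members was not tested. In the other lists the called genes were Prtn3 of 8 granulocyte markers tested and Cd79b as the single B cell marker tested, both lower, and Tfrc of 2 erythroid and Col1a2 of 2 stromal markers, both higher. The oil means of Col1a2, 149 in males and 158 in females, lay below 182. The 1 monocyte and macrophage marker tested was not called, nor were 6 of the 7 HSC markers, with Kit the exception.

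For each of the 4 members called in the averaged comparison, the 3 named genes with the most similar pattern over the 12 arrays were found. For Procr these were Hdac7, a histone deacetylase, with a Pearson r of 0.96, Tcf7l2, a transcription factor of the Wnt pathway, and Dst, a cytoskeletal linker, both 0.95. For Robo4 they were Tcn2, the vitamin B12 carrier transcobalamin, at 0.97, Paip2, a repressor of translation, at 0.97, and Sla2, a Src-like adaptor, at 0.96. For Esam they were the transcription factor Klf9 at 0.95 and the zinc finger genes Zkscan17 and Zfp358 at 0.91, and for Cd34 Cmtm7 at 0.95 and H4c8 and Wdr82 at 0.93. These values contain the shift between E2 and oil that the arrays share. With group means subtracted, r was 0.56 to 0.72 for the genes like Procr, 0.84 to 0.89 for Robo4, 0.70 to 0.82 for Esam and 0.83 to 0.94 for Cd34. The genes had been picked out of all genes tested by r on these same 12 arrays. That choice favours high values here too, so they are a description only.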

How the data were processed

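Probe set intensity values of 35474 probe sets on 12 arrays, deposited by the authors on a linear scale from 0.62 to 16148, were used. Per the labels, RNA was amplified by the NuGEN kit Ovation Pico WTA V2 and labelled with the Encore Biotin Module; how intensities were summarised and normalized is not given in the sources used here. Symbols came from the platform annotation (21780 probe sets with 1 symbol, 1605 with several, 12089 with none; only those with 1 were used). Each of 19935 genes was read from its brightest probe set by mean, and genes with a mean log2(intensity + 1) above the median of 7.52 were tested (9967).

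All 12 arrays entered 1 group-means model in limma 3.58.1 (lmFit, eBayes; R 4.3.3), 2-sided, with Benjamini-Hochberg adjustment over all genes tested, and called at an adjusted p under 0.05. Fold changes are on the log2(intensity + 1) scale, and intervals are at 95%. The fit was tested on simulated data. The number of arrays limits the precision. The members, gene lists and tests were chosen with earlier results of these data known. The genes named were all members, called genes of the lists (up to 8 a list), chromosomal neighbours, the 3 most similar genes per called member, and Kit, Ly6a and Ptprc always; Ly6a had no probe set of its own symbol and was not analysed here. Tek, Eng, Itga4, Itgb1, Mecom, Cxcl12, Itgal, Tjp1, Thbd and Mpo were added to the named genes once values were known. Same-numbered replicates did not deviate together (r of -0.26 to 0.20), so the numbers were not used as pairs. Python 3.11.15 drew the figures with matplotlib 3.10.9.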

Additional observations from a re-analysis of the deposited data

How the results depend on the processing

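In the averaged comparison the number of members called was 3 to 5 under all alternatives run except with a log2 difference of at least 0.5 required, which left 1 (Robo4); Procr, Robo4 and Esam were called in each of the others. It was 4 with the replicate number as a block, and 3 to 5 with 1 array left out. In males it was 1 with no filter (Procr) and 1 with a log2 difference of at least 0.5, and 1 to 3 with 1 array left out. In females it was 1 with quantile normalization, median centring, no filter, a filter at the 25th percentile, array weights, the replicate block, or a log2 difference of at least 0.5 (Robo4 in each), 0 when only the female groups were fitted, and 0 to 3 with 1 array left out. The replicate block changed no other call of a member. The ligand and partner count, examined under alternatives chosen after seeing the data, was 1 with quantile normalization, median centring, array weights or the replicate block, and 1 to 3 with 1 array left out. The background moved too: over all genes, with 1 array left out, 62 to 327 were called in males against 143 with all arrays, 115 to 549 in females against 355, and 476 to 1147 on average against 887; when only the compared groups were fitted, 390 were called in males and 68 in females, and array weights gave 409 and 226.

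The sign of a member's value turned in 29 of 1040 member values under alternatives. None of the 29 passed the test, and the largest was 0.07 in size. With 1 array left out, Jam3 ran from -0.03 to 0.17 in females and from -0.08 to 0.02 on average. Under quantile normalization the difference of responses of Cxcr4 was 0.02 and the E2 sex difference of Procr 0.01; under array weights the oil sex differences of Slamf1 and Cd34 were 0.00; under median centring that of Cxcr4 was 0.02. With 1 array left out, the difference of responses ran from -0.42 to 0.04 for Slamf1, from -0.13 to 0.02 for Cxcr4; the sex difference under oil ran from -0.11 to 0.01 for Robo4, from -0.19 to 0.07 for Slamf1, from -0.05 to 0.12 for Cd34, from -0.05 to 0.04 for Cxcr4, from -0.11 to 0.06 for Cd44, from -0.04 to 0.08 for Jam3; the sex difference under E2 ran from -0.14 to 0.01 for Cxcr4. The cause of these changes was not tested. Of all member values under alternatives, 974 kept direction and side of the threshold, 29 lost a call and 8 gained one. No detection call was given with the intensities, so how far readings below 182 lie from background is unknown; among members these are all of Cd48 and some of Jam3.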
